A study of Homo sapiens with 6 samples.

Results

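The mitochondrial ribosome was examined through its nuclear protein genes in DLD-1 cells, an established human colorectal adenocarcinoma line. Members were the protein-coding genes of the deposited table with an MRPL or MRPS symbol followed by a number, together with DAP3. The rule found 79 of the table's 31016 genes, 49 with a large-subunit symbol (MRPL) and 30 counted as small-subunit (29 MRPS genes and DAP3). The label fits these genes with known exceptions, given here as background. MRPS18A and MRPS30 carry small-subunit names but sit in the large subunit in published structures, and the MRPS36 protein is now assigned to the 2-oxoglutarate dehydrogenase complex. Cells given TGF-β together with TFA (3 libraries, called TGF-β + TFA 1, 2 and 3) were compared with cells given TGF-β alone (3 libraries, called TGF-β 1, 2 and 3). TFA is the total flavone of the plant Abelmoschus manihot, and TGF-β, a growth factor that pushes epithelial cells towards a mesenchymal state, was present in both groups. The labels give a treatment time of 24, 25 and 26 hours for libraries 1, 2 and 3 of each group, whereas the design text places TFA after 24 hours of TGF-β. No untreated cells were analysed here, doses are not in the labels, and nothing states that the libraries came from separate cultures, so p-values measure only the spread between these libraries.

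Mitochondria carry their own small genome, whose messages all encode inner-membrane subunits of the respiratory chain and ATP synthase. These messages are translated by a ribosome whose RNAs come from the mitochondrial genome and whose proteins are all made in the cytosol from nuclear genes and imported. The small subunit holds the message and the decoding centre, and the large subunit forms the peptide bond and faces the inner membrane where new chains are inserted. Compared with its bacterial ancestor the particle has gained many proteins and lost RNA, and colorectal and other tumour cells depend on it for respiration.

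Library totals were 60361756 to 62304157 estimated counts with TGF-β + TFA and 62981239 to 68745953 with TGF-β, and 23289 to 24136 and 23096 to 24159 genes were above 0. Genes at exactly 4 counts numbered 1195 to 1271 in the TGF-β + TFA libraries and 1032 to 1264 in the TGF-β libraries, beside 601 to 664 and 601 to 685 at exactly 3 counts. The counts may overstate the number of fragments, which these numbers do not settle. TGF-β + TFA 3 stood apart by transcript length: of 10 equal length classes of protein-coding genes, the longest lay at a median of -0.41 there (log2 CPM minus the mean of the 6 libraries), and the 4 shortest at 0.11 to 0.18. Its TMM factor, the scaling that edgeR applies to a library size, was 0.895, against 1.04 in each of the other TGF-β + TFA libraries and 0.993 to 1.03 in the TGF-β libraries. Fitted values are followed by those without this library where the text turns on them. Of 10 epithelial markers, 9 had a row, and their summed level was 1400 to 1561 FPKM with TGF-β + TFA and 1511 to 1797 FPKM with TGF-β. KRT18 and KRT8 were the largest parts of it. CDH1 had 25.2, 23.4 and 10.2 FPKM with TGF-β + TFA and 23.7, 19.2 and 27.7 FPKM with TGF-β. VIL1 was low, at 0.0356 to 0.256 and 0.233 to 0.302 FPKM, and CEACAM5 was at 0 in 2 and 1 of the 3 libraries. Of the 8 that passed the filter, 2 were fitted above 0 and 6 below, and none was called by edgeR. The 10 fibroblast markers summed to 0.464, 1.97 and 2.40 FPKM with TGF-β + TFA and 0.0630, 0.312 and 0.373 FPKM with TGF-β. COL3A1 and DCN were at 0 in all TGF-β libraries and in 1 TGF-β + TFA library, and LUM was at 0 in all TGF-β libraries and in 2 TGF-β + TFA libraries. Of the fibroblast markers 7 passed the filter and all 7 were fitted above 0. This count is no support for a direction, since the filter can favour it. PDGFRA, with 11, 12 and 18 estimated counts against 0, 0 and 4, passed only through the TGF-β + TFA libraries. An unadjusted p under 0.05 in edgeR was found in 4 of the 7, all higher (1.83% of all genes in either direction). The 4 include PDGFRA, so this count is no support for a direction either. DESeq2 called 1 of the 7 (0.0702% of all genes). The part of these markers in the results below was not tested. Endothelial markers (8 genes) summed to 2.04 to 2.38 and 1.55 to 1.99 FPKM, and haematopoietic markers (6 of 8 with a row) to 0.346 to 0.903 and 0.469 to 0.571 FPKM.

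All 79 genes were expressed in every library and all passed the filter on low counts, with estimated counts of 444 to 30707. Mean levels over the 6 libraries ran from 5.30 FPKM (MRPL38) to 132.5 FPKM (MRPL3), a 25.0-fold range around a median of 25.1 FPKM. A level over 50 FPKM was reached by 12 genes, 57 lay between 10 and 50 FPKM, and 10 lay under 10 FPKM. The median level was 28.1 FPKM for large-subunit genes and 21.3 FPKM for small-subunit genes. The order of the genes was much the same in every library: over the 79 genes, log2 FPKM of a pair of libraries correlated at 0.952 to 0.997 (Pearson, across genes that share a library and are not replicates).

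**Figure D1:**
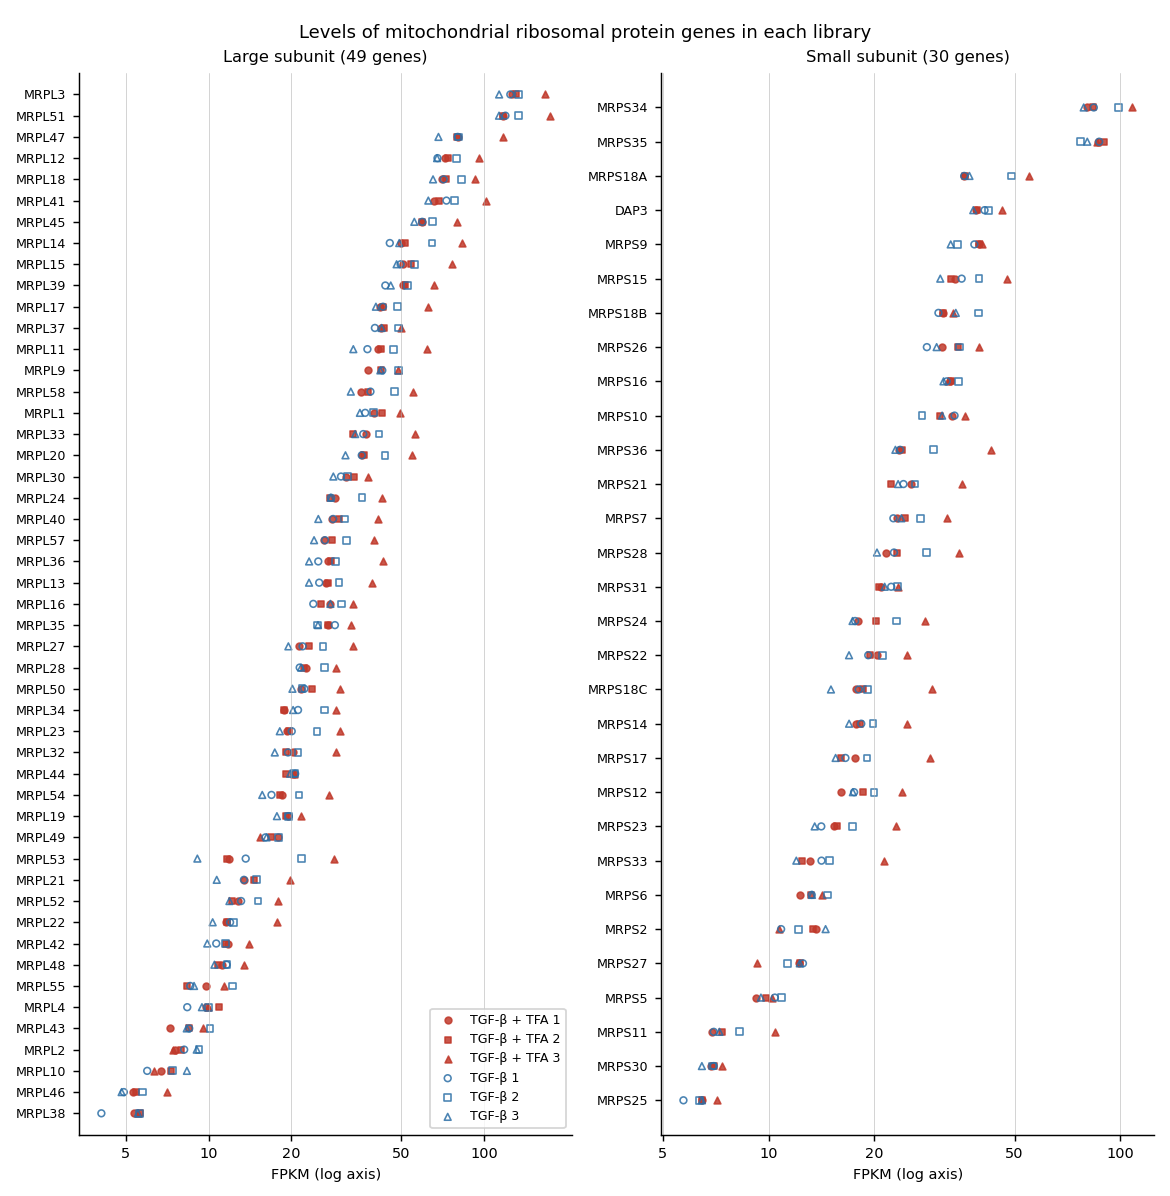
FPKM on a log axis for each of the 79 genes, ordered by mean level, with filled red symbols for the 3 TGF-β + TFA libraries and open blue symbols for the 3 TGF-β libraries. TGF-β + TFA 3 (red triangles) lies to the right of the other 5 libraries in 63 genes, while TGF-β + TFA 1 and 2 lie among the TGF-β libraries in most genes.

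The most abundant was MRPL3, the counterpart of a bacterial core protein near the peptidyl transferase centre. It had 127, 131 and 166 FPKM in the TGF-β + TFA libraries and 125, 133 and 114 FPKM in the TGF-β libraries. MRPL51, a mitochondria-specific protein, followed with 118, 117 and 174 FPKM in TGF-β + TFA libraries and 119.8, 134 and 114 FPKM in TGF-β libraries. These were the only members over 100 FPKM on average, and in both the single high value was TGF-β + TFA 3, with the other 5 libraries between 114 and 134 FPKM. MRPS34, needed for small-subunit stability, had 80.1, 83.8 and 108 FPKM with TGF-β + TFA and 84.0, 98.7 and 78.6 FPKM with TGF-β. MRPL47, the counterpart of bacterial L29 at the tunnel exit, had 80.3, 80.1 and 118 FPKM with TGF-β + TFA and 80.3, 80.8 and 68.4 FPKM with TGF-β. MRPS35, a mitochondria-specific small-subunit protein, had 86.2, 89.7 and 86.0 FPKM with TGF-β + TFA and 87.0, 76.8 and 80.5 FPKM with TGF-β. The groups overlapped in all 5 of these genes, and MRPL3 and MRPL51 differed from each other by less than their spread between libraries, as did MRPS34, MRPL47 and MRPS35. At the other end, MRPL38 had 5.34, 5.65 and 5.55 FPKM with TGF-β + TFA and 4.08, 5.62 and 5.53 FPKM with TGF-β. MRPL46 had 5.32, 5.46 and 7.07 FPKM with TGF-β + TFA and 4.92, 5.76 and 4.83 FPKM with TGF-β, and MRPS25 had 6.46, 6.46 and 7.16 FPKM with TGF-β + TFA and 5.73, 6.37 and 6.47 FPKM with TGF-β. All 3 are proteins without a bacterial counterpart.

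This order depends on the length each value is divided by. The deposited FPKM was close to counts per base of the union of a gene's annotated exons (within 5% in 63 of the 79 genes), so a gene with long, rarely used exons is placed low. MRPL42, chosen after its values were seen, has 16393 such bases but a median protein-coding transcript of 920 bases. It had 11.6 FPKM on average, yet ranked number 5 in CPM per kilobase of protein-coding transcript. On that scale MRPL51, MRPL3 and DAP3 came first, in that order, and MRPL53, MRPL10 and MRPL38 came last, with a 38.3-fold range.

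None of the 79 genes was called between TGF-β + TFA and TGF-β at an adjusted p under 0.05 (edgeR quasi-likelihood test, Benjamini-Hochberg adjustment over 18265 genes). Over all genes 0.0109% were called. None had an unadjusted p under 0.05 either, against 1.83% of all genes, and DESeq2 and limma-trend likewise gave 0 called members and 0 under an unadjusted p of 0.05 (DESeq2 called 0.0702% of all genes). The adjusted p was 0.9997 for every member, and the lowest unadjusted p was 0.140 for MRPL1. Fitted log2 fold changes ran from -0.17 (MRPL2) to 0.40 (MRPL36), with standard errors of 0.12 to 0.48. All 79 intervals (95%) held 0, and in 75 the upper bound was under 1, that is under a 2-fold rise; the exceptions were MRPS18C, MRPS17, MRPS36 and MRPL53, the last with an upper bound of 1.42. The interval of MRPL53 also had the lowest lower bound, -0.82.

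Fitted values above 0 were found in 70 of the 79 members, against 51.9% of all genes tested, with a median of 0.19 (a 1.14-fold level) beside 0.01 over all genes. Large-subunit genes had a median of 0.21 (45 of 49 above 0) and small-subunit genes 0.16 (25 of 30 above 0). This balance rested on a single library. Without TGF-β + TFA 3 the median was -0.07, and 25 of the 79 values were above 0 (53.1% of all genes). In that fit 45 members changed sign, a count given without a share of all genes. No member was then called or had an unadjusted p under 0.05, and 0.0157% of all genes were called. The members' values then ran from -0.38 (MRPL53) to 0.12 (MRPS9). In the plot of fitted changes the open circles, without TGF-β + TFA 3, fall below the filled ones for most genes.

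**Figure D2:**
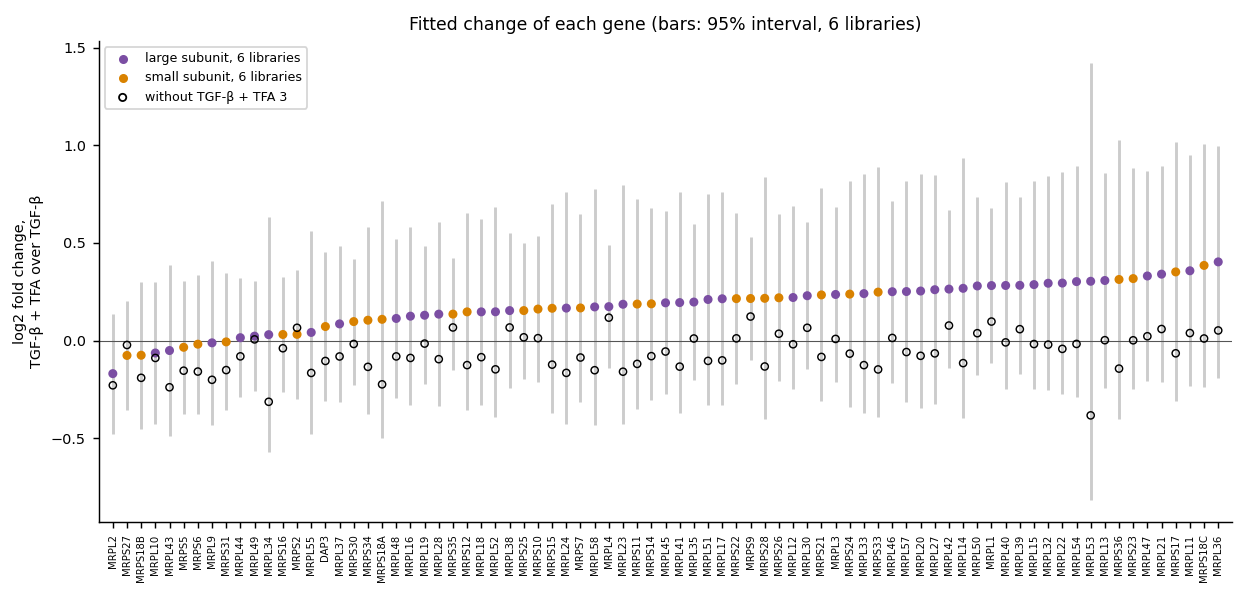
Fitted log2 fold change of each gene, TGF-β + TFA over TGF-β, ordered by size, with 95% intervals as grey bars (6 libraries) and open circles for the fit without TGF-β + TFA 3. Every bar crosses 0; 70 of the filled points and 25 of the open circles lie above 0.

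Library by library, the members moved as a block. The median of the 79 genes was -0.13, -0.11 and 0.52 in the TGF-β + TFA libraries and -0.12, 0.10 and -0.21 in the TGF-β libraries (log2 CPM minus the mean of the 6 libraries), while the median of all genes tested lay between -0.01 and 0.06 in every library. TGF-β + TFA 3 held the highest CPM of the 6 in 73 members (28.6% of all genes) and lay above the mean in 77. Among the TGF-β libraries, number 2 was highest in 72 members (33.7% of all genes) and number 3 lowest in 58. In 58 members both TGF-β + TFA 1 and 2 lay inside the range of the TGF-β libraries. No share of all genes is given for that count, for the 58 lowest in TGF-β 3 or for the 77 above the mean. The median SD of a member's log2 CPM was 0.37 within TGF-β + TFA and 0.17 within TGF-β.

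**Figure D3:**
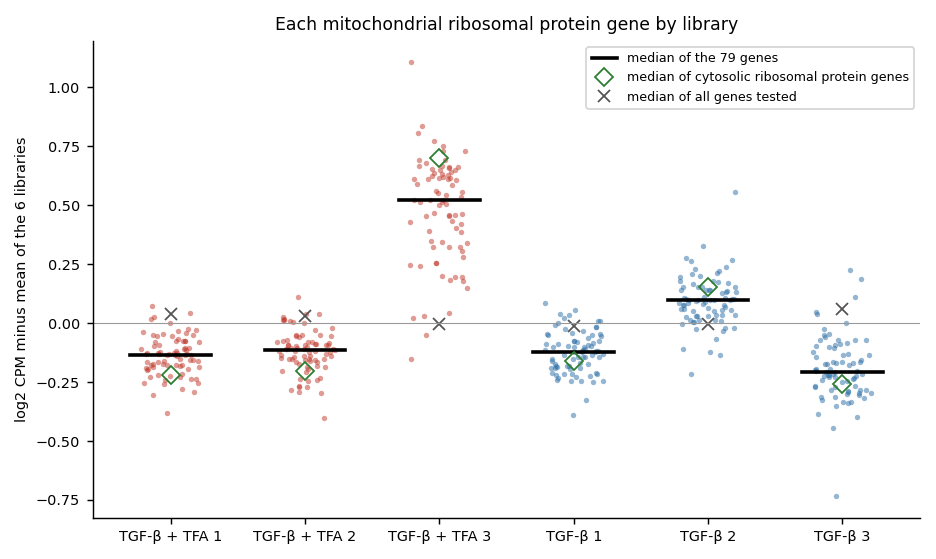
Each dot is 1 of the 79 genes in 1 library, as log2 CPM minus its mean over the 6 libraries (TGF-β + TFA red, TGF-β blue); black bars are medians, green diamonds the median of 83 cytosolic ribosomal protein genes and crosses the median of all genes tested. TGF-β + TFA 3 sits at a median of 0.52 and TGF-β 2 at 0.10, with the other 4 libraries between -0.21 and -0.11.

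Summed over the 79 genes the level was 2364, 2409 and 3203 FPKM with TGF-β + TFA and 2350, 2648 and 2222 FPKM with TGF-β. The genes took 0.628%, 0.639% and 0.834% of the counts in TGF-β + TFA libraries and 0.624%, 0.693% and 0.591% in TGF-β libraries. The highest sum in each group came from TGF-β + TFA 3 and TGF-β 2, and the other 4 sums fell between 2222 and 2409 FPKM. The sum of large-subunit over that of small-subunit genes was 2.11, 2.11 and 2.32 with TGF-β + TFA and 2.08, 2.17 and 2.04 with TGF-β, so it was highest in the same libraries. On the deposited FPKM scale, which lacks the TMM factor, TGF-β + TFA 3 was highest in 63 of the 79 members (17.8% of all genes) and its median was 0.34 above the mean of the 6 libraries, where that of all genes tested was -0.09.

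Levels also followed transcript length or base composition, to differing extents in all libraries. The members are short: the median of their protein-coding transcripts was 1032 bases, against 1851 bases for all genes tested. In TGF-β + TFA 3 the 26 members with the shortest transcripts (461 to 859.5 bases) had a median deviation of 0.63, the middle 26 had 0.49 and the 27 longest (1262 to 3332 bases) had 0.34. Spearman's rho between length and deviation in that library was -0.38 over the 79 members and -0.34 over all genes tested, given as a description since the genes share the library. Over the members it was 0.26 and 0.35 in TGF-β + TFA 1 and 2, and 0.14, -0.39 and 0.39 in TGF-β 1, 2 and 3, so TGF-β 2 and 3 followed length about as closely. In TGF-β 2 the deviation rose with GC content, with medians of 0.01, 0.10 and 0.17 from the most AT-rich to the most GC-rich members and a rho of 0.63 (0.32 over all genes tested). In the other libraries rho with GC content was -0.32, -0.10 and -0.07 (TGF-β + TFA 1, 2 and 3) and -0.37 and 0.17 (TGF-β 1 and 3) over the members, and in TGF-β 1 it was -0.39 over all genes tested. Length and GC content were not tested as the source of the members' values. With each library's trend along protein-coding transcript length removed, the members' median was 0.17 and 68 were above 0.

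Cytosolic ribosomal protein genes, which build the ribosome of the cytoplasm, gave the same pattern of libraries. Their 83 tested genes had medians of -0.22, -0.20 and 0.70 in the TGF-β + TFA libraries and -0.16, 0.15 and -0.26 in the TGF-β libraries. Their median log2 fold change was 0.25, with 81 above 0 and 0 called (edgeR, DESeq2 and limma-trend, also 0 at an unadjusted p under 0.05), and -0.14 without TGF-β + TFA 3. Their transcripts are shorter still, with a median of 683 bases. The difference between mitochondrial and cytosolic ribosomal protein genes was not tested.

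Several members have a place in the particle that is well defined. MRPL2, the counterpart of a bacterial protein beside the peptidyl transferase centre (chr6:43054029-43059434, minus strand, GRCh38), had 7.52, 7.96 and 7.45 FPKM with TGF-β + TFA and 8.15, 9.22 and 9.05 FPKM with TGF-β. All 3 TGF-β + TFA libraries lay below all TGF-β libraries in FPKM, whereas in CPM they overlapped (17.7, 18.7 and 20.5 against 19.6, 22.7 and 21.6). It had the lowest fitted value, -0.17 (SE 0.13; -0.23 without TGF-β + TFA 3). MRPL10 and MRPL12 form the stalk that recruits translation factors. MRPL12 had 72.1, 74.1 and 96.2 FPKM with TGF-β + TFA and 67.8, 79.7 and 67.6 FPKM with TGF-β, and the groups overlapped. MRPL10 had 6.73, 7.32 and 6.32 FPKM with TGF-β + TFA and 5.98, 7.40 and 8.34 FPKM with TGF-β, and here TGF-β 3 was the highest library. MRPL11, which sits at the base of that stalk (chr11:66435075-66438848, minus strand), had 41.3, 42.3 and 62.2 FPKM with TGF-β + TFA and 37.7, 46.8 and 33.5 FPKM with TGF-β. The fitted values of the 3 stalk genes were 0.22 (SE 0.20) for MRPL12, -0.06 (SE 0.16) for MRPL10 and 0.36 (SE 0.25) for MRPL11. Without TGF-β + TFA 3 they were -0.019, -0.089 and 0.038, and no direction was established for any of them.

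Of the proteins at the exit of the large subunit, MRPL45 anchors the particle to the inner membrane. It had 59.7, 59.8 and 80.0 FPKM with TGF-β + TFA and 59.7, 65.05 and 55.9 FPKM with TGF-β. MRPL44, which has a ribonuclease III-like fold, was the steadiest of these: 20.5, 19.1 and 20.4 FPKM with TGF-β + TFA and 20.6, 20.5 and 19.8 FPKM with TGF-β, with a fitted value of 0.01 (SE 0.13; interval -0.29 to 0.32; -0.081 without TGF-β + TFA 3). MRPL41 had 65.8, 68.7 and 101 FPKM with TGF-β + TFA and 73.1, 78.3 and 62.8 FPKM with TGF-β. Outside that group, MRPL58 is a release-factor-like peptidyl-tRNA hydrolase that became part of the large subunit. It had 35.8, 37.9 and 55.3 FPKM with TGF-β + TFA and 38.7, 47.3 and 32.9 FPKM with TGF-β. In MRPL41, MRPL45 and MRPL58 the highest library was TGF-β + TFA 3, and without it their fitted values were -0.13, -0.06 and -0.15, where with all 6 libraries they were 0.19 (SE 0.24), 0.19 (SE 0.20) and 0.17 (SE 0.26).

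The largest fitted value belonged to MRPL36, a small zinc-binding protein of the large subunit (chr5:1798385-1801366, minus strand). It had 27.2, 27.9 and 43.0 FPKM with TGF-β + TFA and 25.0, 28.9 and 23.2 FPKM with TGF-β, a log2 fold change of 0.40 (SE 0.26; interval -0.19 to 0.998). TGF-β + TFA 1 and 2 lay between TGF-β 1 and TGF-β 2, and without TGF-β + TFA 3 the value was 0.05. MRPL21, another protein with a bacterial counterpart, had 13.5, 14.6 and 19.7 FPKM with TGF-β + TFA and 13.4, 14.9 and 10.7 FPKM with TGF-β, a fitted value of 0.34 (SE 0.24; 0.059 without TGF-β + TFA 3). MRPL43, a mitochondria-specific protein, had 7.27, 8.45 and 9.53 FPKM with TGF-β + TFA and 8.50, 10.1 and 8.33 FPKM with TGF-β, a fitted value of -0.05 (SE 0.19; -0.24 without TGF-β + TFA 3). MRPL53 had the widest spread of all members and was chosen for it: 11.8, 11.7 and 28.5 FPKM with TGF-β + TFA and 13.6, 21.7 and 9.10 FPKM with TGF-β. Its fitted value was 0.30 (SE 0.48) with all libraries and -0.38 without TGF-β + TFA 3.

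In the small subunit, MRPS12 is the counterpart of the bacterial decoding-centre protein S12. It had 16.04, 18.5 and 24.0 FPKM with TGF-β + TFA and 17.5, 19.9 and 17.4 FPKM with TGF-β, a fitted value of 0.15 (SE 0.22) that was -0.13 without TGF-β + TFA 3. MRPS17 had 17.6, 16.04 and 28.8 FPKM with TGF-β + TFA and 16.5, 19.04 and 15.5 FPKM with TGF-β (0.35, SE 0.28; -0.065 without TGF-β + TFA 3). DAP3, a GTP-binding protein of the small-subunit head first described in interferon-induced cell death (chr1:155687960-155739010, plus strand), had 38.7, 39.0 and 46.1 FPKM with TGF-β + TFA and 41.1, 42.2 and 38.2 FPKM with TGF-β. Its fitted value was 0.07 (SE 0.16; interval -0.31 to 0.45), and -0.10 without TGF-β + TFA 3. MRPS22, a mitochondria-specific protein in which inherited mutations cause a fatal respiratory chain deficiency, had 20.3, 19.4 and 24.7 FPKM with TGF-β + TFA and 19.2, 21.1 and 16.9 FPKM with TGF-β (0.21, SE 0.19; 0.011 without TGF-β + TFA 3). MRPS27, a pentatricopeptide repeat protein, went against the block: 12.2, 12.3 and 9.29 FPKM with TGF-β + TFA and 12.5, 11.3 and 12.3 FPKM with TGF-β. Its lowest library was TGF-β + TFA 3 on both scales, and its fitted value was -0.08 (SE 0.12; -0.023 without that library).

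MRPS9 was the only member whose groups did not overlap in CPM, where 4.58% of all genes were higher with TGF-β + TFA without overlap and 3.33% lower. It had 78.5, 77.7 and 93.4 CPM with TGF-β + TFA and 77.6, 71.3 and 66.1 CPM with TGF-β, a fitted value of 0.22 (SE 0.14; 0.12 without TGF-β + TFA 3) and an unadjusted p of 0.154 in edgeR. In FPKM the groups did not overlap in 3 members that were higher with TGF-β + TFA (MRPS9, MRPL1 and MRPL42; 4.22% of all genes) and in 1 that was lower (MRPL2; 3.73% of all genes). These counts out of 79 are near or below the shares of all genes.

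The 3 paralogs of bacterial S18 allow a comparison of closely related members. MRPS18A, which sits in the large subunit, had 35.9, 36.2 and 54.8 FPKM with TGF-β + TFA and 36.0, 49.1 and 37.2 FPKM with TGF-β. MRPS18B had 31.4, 31.3 and 33.5 FPKM with TGF-β + TFA and 30.4, 39.5 and 34.04 FPKM with TGF-β. MRPS18C, the one closest to bacterial S18, had 17.7, 18.5 and 29.2 FPKM with TGF-β + TFA and 18.0, 19.1 and 15.0 FPKM with TGF-β. Their fitted values were 0.11 (SE 0.26), -0.08 (SE 0.16) and 0.38 (SE 0.27), and -0.22, -0.19 and 0.010 without TGF-β + TFA 3; TGF-β + TFA 3 was the highest library of MRPS18A and MRPS18C, and TGF-β 2 that of MRPS18B. MRPS36, of the 2-oxoglutarate dehydrogenase complex, also had its highest library in TGF-β + TFA 3, with 23.5, 23.9 and 42.9 FPKM with TGF-β + TFA and 23.6, 29.5 and 22.9 FPKM with TGF-β (0.31, SE 0.31; -0.14 without TGF-β + TFA 3).

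Some of these counts may include reads of other genes. Exons of another gene in the table covered at least 10% of the exon bases of 24 members, on the same strand in 9, and the sources used here do not say if strand was used in counting. CCDC142, on the same strand as MRPL53, covers 45.2% of its exon bases. CCDC142 had 881, 1091 and 574 estimated counts with TGF-β + TFA and 994, 849 and 987 with TGF-β, while MRPL53 had 550, 560 and 1331 with TGF-β + TFA and 721, 1102 and 444 with TGF-β. NCAPD2, a condensin subunit on the strand opposite to MRPL51, covers 31.3% of its exon bases and had 6385, 5634 and 3180 estimated counts with TGF-β + TFA and 5783, 6000 and 7030 with TGF-β. ABRAXAS1 covers 40.2% of MRPS18C, and RSPH9, with 14 to 38 estimated counts per library, 47.0% of MRPS18A. AC087289.3, on the same strand as MRPL38, covers 37.5% of its exon bases and had 0 to 134 estimated counts per library. AC139530.2, a gene without a row in the table, covers 68.2% of MRPL12 on the same strand. The values of these members are uncertain to that extent.

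The members are scattered over 21 chromosomes, and their starts share features that the rule did not use. RefSeq promoters (GRCh38.p14, from 250 bases before to 50 after the start) were found for 70 members; none is shown for MRPS36, MRPL15, MRPL10, MRPL2, MRPS28, MRPL21, MRPL23, MRPL13 and MRPL35. The ETS core CCGGAAG, searched on both strands in the 250 bases before the start, was present in 23 of 70 members (32.9%), against 8.82% of 27305 promoters. The members are all protein-coding, whereas the 27305 promoters were not limited to protein-coding genes. The shares of all promoters, here and for the motifs below, are therefore not those of a matched set. ETS sites are bound by GABP, a long-known regulator of nuclear genes for mitochondria. The stretches below end at the last base before the start. They reach back up to 100 bases, or less where an exon of another gene comes first. They were picked for holding the ETS core, which capitals mark on either strand, and they include 3 of the 5 most abundant members and MRPS22. The same stretches of MRPL51, MRPS12, MRPS18C and MRPL38 held no match. MRPS18C and MRPL38 held the core farther upstream, and in MRPS12 it ran across the start. Of the other most abundant members, MRPL51 held the core farther upstream and MRPS35 did not hold it.
MRPL3 (chr3:131502972-131503071, minus strand): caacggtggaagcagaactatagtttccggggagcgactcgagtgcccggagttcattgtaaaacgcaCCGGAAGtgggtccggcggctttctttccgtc
MRPL47 (chr3:179604639-179604689, minus strand): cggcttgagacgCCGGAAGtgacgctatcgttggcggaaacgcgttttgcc
MRPS34 (chr16:1773135-1773206, minus strand): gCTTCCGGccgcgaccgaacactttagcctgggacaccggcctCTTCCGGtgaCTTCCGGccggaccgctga
MRPS22 (chr3:139343894-139343993, plus strand): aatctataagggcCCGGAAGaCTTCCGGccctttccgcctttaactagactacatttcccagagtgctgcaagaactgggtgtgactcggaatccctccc

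MRPL3 and MRPL47 hold 1 copy in these stretches, MRPS22 holds 2 facing each other and MRPS34 holds 3. Members with the ETS core before the start had a median log2 fold change of 0.23 and those without 0.17, against -0.066 and -0.067 when TGF-β + TFA 3 was left out. The YY1 core AAGATGG, searched on both strands over the 300 bases, was present in 23 of 70 members (32.9%), against 6.06% of all promoters. In 16 members the match lies after the start, always on the gene's own strand. In 12 of these 16 the ATG inside the letters is an annotated start codon (GENCODE 29), so the letters there also run into the coding sequence. The exceptions are MRPL11, MRPL20, MRPL42 and MRPL51. A noncoding gene has no start codon, so the 6.06% is not a matched share for these matches. The sites below, with flanking bases, were picked to show this shared element in members named above, and capitals mark the YY1 core.
MRPS18A (chr6:43687763-43687792, minus strand): taggtttttgAAGATGGcggccctcaaggc
MRPS18B (chr6:30617853-30617882, plus strand): ggcgtacgtcAAGATGGcggcgtctgtatt
MRPS27 (chr5:72320205-72320234, minus strand): ggtacgctccAAGATGGctgcctccatagt
MRPL45 (chr17:38297171-38297200, plus strand): ttgcgggaacAAGATGGcagcccccatacc
MRPL46 (chr15:88467361-88467390, minus strand): gggagaacgaAAGATGGcggcgcccgtaag
MRPL38 (chr17:75904859-75904888, minus strand): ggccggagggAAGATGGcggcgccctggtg
MRPL11 (chr11:66438805-66438834, minus strand): cctctggcccAAGATGGtggcgcccagagc
MRPL51 (chr12:6493222-6493251, minus strand): ggtaaggcccAAGATGGctgtcttcgcctt

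Of these 8 genes, MRPL38 and MRPL46 are among the least abundant members and MRPL51 among the most abundant. Differences in fitted value between these genes were not tested. Members with the YY1 core had a median log2 fold change of 0.19 and those without 0.19, against -0.023 and -0.082 when TGF-β + TFA 3 was left out. The letters TGCGCA, part of the NRF1 site, were present before the start in 13 of 70 members (18.6%; 7.05% of all promoters), the GC-box core GGGCGG in 39 (55.7%; 42.3%) and the TATA box core TATAAA in 2 (2.86%; 11.1%), all on both strands. A single pair of different motifs overlapped among the members. A match describes letters only, and no binding was measured.

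Shared starts were also common. A protein-coding neighbour began within 1000 bases in the opposite direction at 16 of 79 members (20.3%), against 9.51% of 16600 protein-coding genes. MRPL46 and MRPS11, both members, start 64 bases apart and had fitted values of 0.25 (SE 0.20) and 0.19 (SE 0.23), which were 0.013 and -0.12 without TGF-β + TFA 3. MRPL36 starts 41 bases from NDUFS6 and MRPL47 50 bases from NDUFB5, each neighbour a subunit of respiratory complex I. NDUFS6 had a fitted value of 0.15 (SE 0.26) and NDUFB5 of 0.10 (SE 0.22), beside 0.40 for MRPL36 and 0.33 for MRPL47. Without TGF-β + TFA 3 these were -0.18 (NDUFS6), -0.17 (NDUFB5), 0.052 (MRPL36) and 0.022 (MRPL47). MRPL49 starts 30 bases from FAU, which encodes a cytosolic ribosomal protein, with fitted values of 0.02 (SE 0.12) for MRPL49 and 0.22 (SE 0.28) for FAU, the last at -0.16 without TGF-β + TFA 3.

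The rest of the mitochondrial gene expression pathway was read from lists chosen by function. No gene of the lists below was called by edgeR, DESeq2 or limma-trend, where edgeR called 0.0109% of all genes. The 4 ribosomal proteins with other names (PTCD3, AURKAIP1, CHCHD1 and GADD45GIP1) had a median log2 fold change of 0.23 with 3 above 0, and -0.05 with 1 above 0 without TGF-β + TFA 3. CHCHD1 had 39.9, 40.9 and 63.8 FPKM with TGF-β + TFA and 39.7, 45.3 and 38.3 FPKM with TGF-β (0.29, SE 0.25; -0.070 without TGF-β + TFA 3). The 26 ribosome assembly genes had a median of 0.00 with 13 above 0, and -0.10 with 7 above 0 without TGF-β + TFA 3. Among them MTERF3, which acts in large-subunit assembly, had 18.6, 19.5 and 19.4 FPKM with TGF-β + TFA and 17.8, 16.01 and 17.3 FPKM with TGF-β (0.21, SE 0.13; 0.12 without TGF-β + TFA 3). The 15 genes listed for translation, with LRPPRC, SLIRP and OXA1L beside the translation factors, had a median of 0.07 with 12 above 0. Without TGF-β + TFA 3 it was 0.03 with 11 above 0. MTIF3, the initiation factor that places the small subunit, had 29.6, 30.3 and 37.2 FPKM with TGF-β + TFA and 28.5, 31.7 and 26.2 FPKM with TGF-β (0.22, SE 0.19; 0.012 without TGF-β + TFA 3). The 23 genes that charge mitochondrial transfer RNAs or modify charged ones had a median of -0.03 with 9 above 0. Without TGF-β + TFA 3 it was -0.05 with 8 above 0. Among them QRSL1, which makes glutaminyl-tRNA, had 0.21 (SE 0.14; 0.11 without TGF-β + TFA 3).

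**Figure D4:**
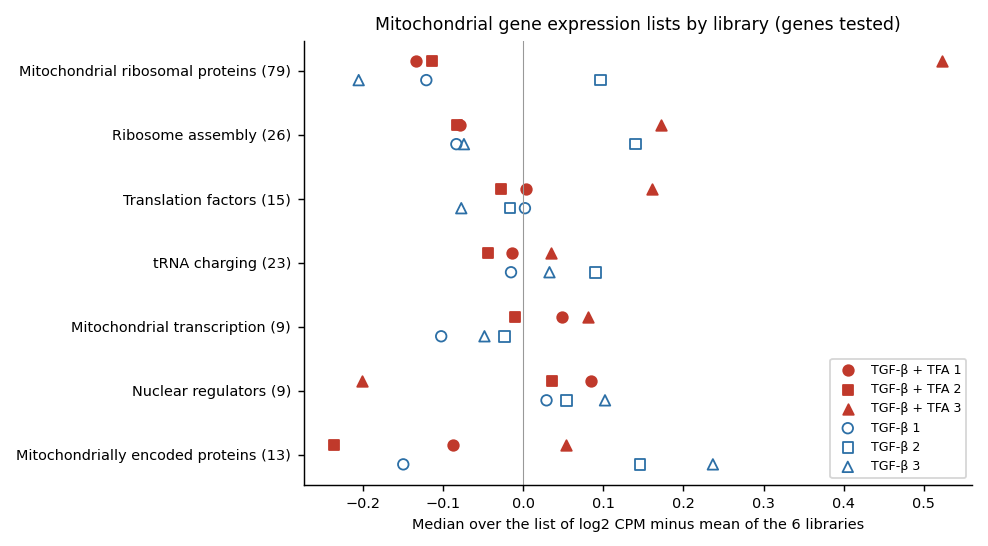
Median over each list of log2 CPM minus the mean of the 6 libraries, with filled red symbols for TGF-β + TFA 1, 2 and 3 above open blue symbols for TGF-β 1, 2 and 3. TGF-β + TFA 3 lies at 0.52 for the 79 mitochondrial ribosomal protein genes and at -0.20 for the 9 nuclear regulators.

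Nuclear regulators of these genes were fitted below 0 in 9 of 9 cases, with a median of -0.08, where 51.9% of all genes tested were above 0. The 9 values ran from -0.004 (GABPA, SE 0.16) to -0.53 (PPARGC1A, SE 0.64, on 7 to 23 estimated counts). NRF1 at -0.015 (SE 0.15) and ESRRA at -0.028 (SE 0.15) also lay close to 0. None of the 9 had an unadjusted p under 0.05 in edgeR (1.83% of all genes). The 9 include NRF1, both GABP subunits, YY1 and MYC. In CPM, the median deviation of the 9 in TGF-β + TFA 3 was -0.20 and 7 lay below their mean, where the median was 0.08 and 0.04 in TGF-β + TFA 1 and 2. NRF1 and ESRRA were the exceptions, and ESRRA had its highest CPM of the 6 libraries there. NRF1 had 4.07, 3.996 and 3.84 FPKM with TGF-β + TFA and 3.69, 4.64 and 3.97 FPKM with TGF-β. GABPA had 14.7, 14.1 and 9.24 FPKM with TGF-β + TFA and 14.1, 11.2 and 13.3 FPKM with TGF-β. Their transcripts have a median of 2385 bases, and without TGF-β + TFA 3 the median fitted value was -0.02 with 4 of the 9 above 0. PPARGC1A, a coactivator of mitochondrial biogenesis, was nearly silent at 0.00836 to 0.0220 FPKM with TGF-β + TFA and 0.0166 to 0.0294 FPKM with TGF-β. Genes of mitochondrial transcription and DNA replication (POLG, POLG2 and TWNK for the latter) had a median of 0.10 with 8 of 9 above 0. Without TGF-β + TFA 3 their median was 0.07 with 6 above 0. TFAM, which packages mitochondrial DNA and starts its transcription, had 31.9, 31.3 and 36.1 FPKM with TGF-β + TFA and 28.7, 29.1 and 28.7 FPKM with TGF-β. All TGF-β + TFA libraries of TFAM lay above all TGF-β libraries, a pattern that 4.22% of all genes had in FPKM. TFAM had the lowest p of its list, with a fitted value of 0.24 (SE 0.15; 0.087 without TGF-β + TFA 3) and an unadjusted p of 0.151 in edgeR.

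The messages that the mitochondrial ribosome translates were measured in the same libraries. The 13 protein-coding genes of the mitochondrial genome had a median log2 fold change of -0.23 with 2 above 0 (51.9% of all genes). Without TGF-β + TFA 3 it was -0.31 with 0 above 0 (53.1% of all genes). Their median deviation in log2 CPM was -0.09, -0.24 and 0.05 in the TGF-β + TFA libraries and -0.15, 0.15 and 0.24 in the TGF-β libraries. TGF-β 1 thus lay among the TGF-β + TFA libraries. In CPM the groups overlapped in all 13 genes, which share the libraries and are not replicates. At an unadjusted p under 0.05 edgeR found 1 of the 13 (1.83% of all genes), DESeq2 2 (1.76%) and limma-trend 0 (1.65%). MT-ND5, a complex I subunit, had 819, 734 and 573 FPKM with TGF-β + TFA and 771, 930 and 1294 FPKM with TGF-β, a fitted value of -0.47 (SE 0.20; interval -0.94 to -0.01; unadjusted p = 0.0472, adjusted p = 0.9997 in edgeR), and -0.41 without TGF-β + TFA 3. The groups overlapped, since TGF-β + TFA 1 lay above TGF-β 1, and TGF-β 3 was the highest library. The difference between the mitochondrial messages and the ribosomal protein genes was not tested.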

How the data were processed

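Poly(A) RNA of 6 libraries was sequenced, per the labels' protocols, from dUTP-labelled libraries with unique molecular identifiers. Tools listed without roles in the submitters' processing notes are StringTie 1.3.4d, HISAT2 2.0.4 and cutadapt 1.9, on the build GRCh38. The authors deposited FPKM and whole-number estimated counts per gene. The deposited estimated counts may come from coverage, so intervals cover the spread between libraries and not exact counting error.

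Genes passing filterByExpr were scaled by TMM and fitted with edgeR 4.0.16 (R 4.3.3, glmQLFit and glmQLFTest, 2-sided, group as the only term), with Benjamini-Hochberg adjustment over 18265 genes. Standard errors are the log2 fold change over the square root of F. CPM is edgeR's depth-scaled count on the TMM-scaled total. DESeq2 1.42.0 and limma 3.58.1 on log2(FPKM + 0.5), with genes of mean FPKM at least 0.5, were alternatives; the FPKM fold changes understate low genes. The code was tested on simulated data. GENCODE 29, which holds 97.3% of the identifiers, gave transcript lengths, GC and exon overlaps; 22 of 79 members have the same coordinates there. RefSeq gave promoters. Same-numbered libraries of the 2 groups were not taken as pairs.

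Members and lists were chosen with earlier results of these data known. Genes named were the 5 highest and 3 lowest in FPKM, the 5 largest and 5 lowest log2 fold changes, a fixed set, and the lowest p per list; MRPL1, MRPL42, MRPL53, MRPS9, MRPS11 and neighbouring genes were chosen after their values were seen, as were NRF1 and GABPA. Motif letters were shortened to their cores after a longer form had been searched.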

Additional observations from a re-analysis of the deposited data

How the results depend on the processing

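No member was called under any of the 17 alternatives. With all 6 libraries, the members' median stayed at 0.13 to 0.20 and 66 to 71 were above 0 (DESeq2 size factors or Wald test, no filter, limma-trend, length offsets, counts divided by 4, replicate block). Leaving out each library in turn, the median ran from -0.07 (without TGF-β + TFA 3) to 0.30, the count above 0 from 25 to 76, and all genes called from 1 to 3. All genes called were 15 with the DESeq2 Wald test. With the replicate number as a block, 1 gene was called in all and 0 members, with a median of 0.16; deviations of same-numbered libraries correlated at -0.13 to 0.04. Without TGF-β 1 and TGF-β + TFA 3 the median was -0.10 with 13 above 0. Without TGF-β 2 and TGF-β + TFA 3, chosen after seeing the data like the offsets along protein-coding transcript length, it was 0.02 with 48 above 0.

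Of 35 genes named, none was called or lost a call. Fitted values of the opposite sign were found for MRPL44 with limma-trend on log2(FPKM + 0.5) or log2(FPKM + 1) (-0.022 each) and with length offsets (-0.023). Without TGF-β 1 and TGF-β + TFA 3 they were MRPL3 -0.0063, MRPL51 -0.14, MRPS34 -0.18, MRPL38 -0.084, MRPL46 -0.041, MRPS25 -0.053, MRPL11 -0.013, MRPS17 -0.11, DAP3 -0.11, MRPL12 -0.077, MRPS12 -0.17, MRPL58 -0.19, MRPS18A -0.33, MRPS36 -0.21, MRPL41 -0.14, MRPL45 -0.082, MRPL44 -0.088, MRPS22 -0.0049, MTIF3 -0.015 and CHCHD1 -0.11. Without TGF-β 2 and TGF-β + TFA 3 they were MRPL51 -0.019, MRPS34 -0.018, DAP3 -0.058, MRPS12 -0.042, MRPS18A -0.051, MRPS36 -0.0037, MRPL41 -0.046 and MRPL44 -0.059. Ranges over the left-out libraries crossed 0 for MRPL51 (-0.10 to 0.33), MRPS34 (-0.13 to 0.22), MRPS17 (-0.065 to 0.53), DAP3 (-0.10 to 0.14), MRPL12 (-0.019 to 0.32), MRPS12 (-0.13 to 0.29), MRPL58 (-0.15 to 0.34), MRPS18A (-0.22 to 0.28), MRPS36 (-0.14 to 0.49), MRPL41 (-0.13 to 0.33), MRPL45 (-0.056 to 0.29), MRPL44 (-0.081 to 0.068), CHCHD1 (-0.070 to 0.43), MRPS18B (-0.19 to 0.046), MRPL43 (-0.24 to 0.065) and MRPL10 (-0.19 to 0.0058). The cause was not tested. With 3 libraries a group, differences of the members' size are within the spread between libraries.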
